A study of Mus musculus with 14 samples.

Results

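Cytosolic ribosomal proteins are the protein subunits of the ribosome outside mitochondria. By symbol, 35 of their genes, 17 named for the large subunit and 18 for the small, could be followed here among 8251 genes with a probe set of their own. The symbols take in Rps4l, which RefSeq lists as a transcribed pseudogene, and Rpl7l1, which acts in assembly of the large subunit. A gene was taken when the array annotation gave a probe set a single symbol that began with Rpl or Rps and a digit, or was Rplp0, Rplp1, Rplp2 or Rpsa, and was neither an Rps6k kinase nor a pseudogene marked -ps. This gave 49 probe sets, and each gene was represented by the 1 with the highest mean signal. Another 39 probe sets that list a ribosomal protein gene among several symbols were left out by the rule, so Rplp1, Rps6 and Rpl3 are not described here.

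RNA of the mouse corneal stroma, the transparent collagen-rich layer built by keratocytes, was measured on 14 Affymetrix MG_U74Av2 arrays in 5 groups. All mice were of the CD-1 strain. Dissected tissue gave 3 arrays from adults of 7 to 8 weeks and 2 arrays from animals at postnatal day 10 (P10). Primary cultures of stromal cells from adults of the same age, all in DMEM, gave the other 9: 3 keratocyte cultures with 1% platelet-poor horse serum, 3 fibroblast cultures with 10% fetal bovine serum, and 3 myofibroblast cultures with 10% fetal bovine serum and 10 ng/ml of the growth factor TGF-beta 1. The labels do not say whether the arrays of a group came from separate animals or cultures, so p-values measure only the spread between these arrays, which may be technical.

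A ribosome holds a single copy of most of its proteins, and the genes for them are transcribed at high, matched levels in nearly every cell. The messenger RNAs of most ribosomal proteins begin with a run of pyrimidines, the terminal oligopyrimidine tract, which lets growth signals through mTOR switch their translation on and off with little change in RNA level. A few members have paralogs, close relatives with a gene of their own, that are made in particular tissues or under stress.

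Promoters are shown because the pyrimidine tract lies at the start of transcription. RefSeq windows of 300 bases (GRCm38.p6, from 250 before the start to 50 after it) were found by symbol for 28 of the 35 genes, 37 windows in all. The letters CTTTCC, a pyrimidine run, stood on the gene's own strand in 17 of the 37 windows (45.9%), against 14.1% of all 32851 windows. A match was counted wherever it lay in the 300 bases, so this is no count of tracts at the start. With the first base of the transcript as 1, it began at base 1 in Rpl38, but at -237 in Rpsa, -121 in Rplp0 and 36 in Rpl6. Overlapping windows of Rpl35a and of Rps19 held the same CTTTCC more than once. Counted on either strand, CTTTCC was in 54.1% of member windows and 26.6% of all. CCGGAAG, the core bound by ETS family factors, was in 32.4% of member windows and 8.86% of all on either strand, and AAGATGGC, the core bound by YY1, was in 18.9% and 2.75%. TATAAA, the letters of a TATA box, was in 10.8% and 13.6%. The AAGATGGC matches lay in 7 windows of 5 genes, because overlapping windows of Rpl35a held the same match more than once. Of the 22 windows of the bright members described below, 0 held AAGATGGC. In those windows CTTTCC was in 45.5% and CCGGAAG in 36.4%, again on either strand. Matches of the first 3 motifs can share up to 3 letters at their ends. A match describes letters and is no measured binding. The 25 bases before and the 25 from the start are printed below for some genes, 5′ to 3′ on the gene's strand, with a motif match in capitals (CTTTCC or CCGGAAG). They are Rpl39l and Rpl13a, whose differences held under every processing tried, the paralogs Rps27 and Rps27l, and the bright subunits Rps10 and Rpl6, which passed in no comparison. Every printed stretch holds a match, so they are not typical of the members. The same bases of the bright Rpl37a, Rps3 and Rpl41 hold neither motif and are not printed.
Rpl39l, chr16:10170203-10170252, plus strand: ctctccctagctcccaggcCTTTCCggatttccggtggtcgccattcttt
Rpl13a, chr7:45128721-45128770, minus strand: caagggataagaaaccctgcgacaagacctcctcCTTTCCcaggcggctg
Rps27, chr3:90213624-90213673, minus strand: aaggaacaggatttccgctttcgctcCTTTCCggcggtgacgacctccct
Rps27l, chr9:66946061-66946110, plus strand: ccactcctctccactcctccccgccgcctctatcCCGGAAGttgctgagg
Rps10, chr17:27635220-27635269, minus strand: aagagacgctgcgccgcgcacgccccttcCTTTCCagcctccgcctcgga
Rpl6, chr5:121204476-121204525, plus strand: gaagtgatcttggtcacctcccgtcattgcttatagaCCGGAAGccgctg

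With the first base of the transcript counted as 1, CTTTCC began at base 2 in Rps27, at base 5 in Rps10, at base 10 in Rpl13a and at base -6 in Rpl39l. Within the printed bases Rps27 holds CTTTCC and its paralog Rps27l holds CCGGAAG. RefSeq gives Rps27l another start as well, where CTTTCC lies at base -203.

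Signals are in arbitrary units of fluorescence and cannot be ranked between genes, because each probe set binds its target with its own strength. The array carries 19 negative control probe sets, and the 95th percentile of their signals, 137.7, is used here as the upper level of background. By their mean over all 14 arrays, 27 members were above it and 8 were below (Rpl32, Rpl35a, Rpl38, Rpl39, Rpl7l1, Rps14, Rps15 and Rps20). None of these 8 reached 137.7 on any array. For them the arrays give no level, and the 4 of lowest signal (Rpl39, Rps14, Rps15 and Rps20, all under a mean of 50 in every group) were not tested. Median signals of the arrays were 102 to 136. As a sign of RNA quality, the Gapdh probe set at the 3′ end was divided by that at the 5′ end, a ratio that degraded RNA raises. It was 0.756 to 0.859 on culture arrays and 0.896 to 2.12 on tissue arrays, the highest on adult array 1.

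The culture names were set against marker genes. Of 6 keratocyte markers (Kera, Lum, Dcn, Aldh3a1, Ptgds and Tkt) 2 were higher and 1 lower in keratocyte culture than in adult stroma, and 3 did not pass. In fibroblast culture 1 was higher and 3 were lower, so the markers did not move together. Their summed signal was 16895 to 18034 in the adult and 19867 to 20713 at P10. It was 7765 to 15445 in keratocyte, 7464 to 12693 in fibroblast and 6957 to 8866 in myofibroblast culture. Kera, the cornea's keratocan, was 303 ± 112 in the adult, 165 ± 149.7 in keratocyte culture and within background at 44.7 ± 41.5 in fibroblast culture (SD, n = 3 each). It is 1 of the 6 and does not stand for the others. The summed signal of the myofibroblast markers Acta2, Tagln and Myl9 was 204 to 265 in the adult, 743 to 1279 at P10, 7152 to 8199 in keratocyte, 1427 to 6726 in fibroblast and 6028 to 6711 in myofibroblast culture. The keratocyte cultures thus had the highest sums of the myofibroblast markers, against their name. The culture names are used below only for the medium.

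Markers of neighbouring cell types were high on the tissue arrays. The summed signal of 6 corneal epithelium markers was 14371 to 15586 on the 5 tissue arrays and 289 to 395 on the 9 culture arrays, and Col17a1 and Itgb4 were at the floor of 1 on every keratocyte and fibroblast array. For 3 lens and retina markers the sum was 3561 to 8911 in tissue and 105 to 154 in culture, and for 4 macrophage markers it was 176 to 249 in tissue, 1697 to 2164 in keratocyte, 416 to 1117 in fibroblast and 258 to 485 in myofibroblast culture. All these moved between tissue and culture, and their part in the results below was not tested. The Gapdh 3′/5′ ratio was higher in tissue as well, at 0.896 to 1.04 on the tissue arrays other than adult array 1, and its part was not tested either. In such mixed samples fewer cells of a type and less RNA per cell cannot be told apart.

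The bright subunits stayed within 1.84-fold across all 14 arrays. Of the 35 genes, 19 had a mean signal of 2000 or more: Rpl6, Rpl7, Rpl7a, Rpl8, Rpl10a, Rpl19, Rpl37a, Rpl41 and Rplp0 of the large subunit, and Rps3, Rps3a1, Rps4x, Rps7, Rps10, Rps18, Rps19, Rps24, Rps28 and Rpsa of the small. For each gene the highest of the 14 arrays was divided by the lowest, and these ratios ran from 1.22 to 1.84 with a median of 1.38. Rps7, a small-subunit protein that also binds the p53 regulator Mdm2, had the lowest ratio. Its signal was 3689 and 3814 at P10, 3281, 3746 and 3975 on the adult arrays, 3657, 3747 and 3887 in keratocyte culture, 3822, 3859.8 and 3601 in fibroblast culture, and 3920.4, 4010.2 and 3534 in myofibroblast culture. The arrays of every group overlapped those of every other group for this gene.

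Rpl41, the smallest protein of the ribosome, gave 5781 ± 306 (SD, n = 2) at P10 and 6015 ± 191 for adults (SD, n = 3 here and for the cultures). Its signal was 5951 ± 512 in keratocyte, 6357 ± 389 in fibroblast and 5931 ± 414 in myofibroblast culture, and adult and culture arrays overlapped. Rps3, which lines the entry of the mRNA channel, ranged from 3187 to 3951 over all arrays. Rplp0, the base of the lateral stalk that recruits elongation factors, was 5176 and 5175 on the P10 arrays and 4470.5, 5231 and 5165 on the adult arrays. It was 5287, 5158 and 5476 in keratocyte culture, 5608, 5438 and 5597 in fibroblast culture, and 5816, 5699.6 and 5632 in myofibroblast culture. The culture arrays lay mostly above the tissue arrays, yet the difference of fibroblast culture from adult stroma was 0.17 ± 0.09 (log2, SE) and did not pass the threshold (adjusted p = 0.182).

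Bright signals of members reached 6682, close to the highest signals of any probe set on an array, which were 6554 to 7725. Whether the scale was compressed at this height was not tested.

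Of 141 probe sets with a mean of 2000 or more, members included, 62 (44%) passed the threshold between keratocyte culture and adult stroma and 67 (47.5%) between fibroblast culture and adult stroma. Of the 19 bright members none passed in the first of these comparisons (2 at an unadjusted p under 0.05 in limma) and 2 in the second (Rpl7 and Rpsa). These counts moved with the scaling. Under quantile normalization 3 bright members were lower in keratocyte culture (Rpl10a, Rps24 and Rps28), and in fibroblast culture 7 passed, Rpsa as higher and Rpl7, Rpl10a, Rps10, Rps24, Rps28 and Rps4x as lower. With arrays centred on their medians, 3 passed in each comparison. Without adult array 1 none of the 19 passed in either, and over the single arrays left out 0 to 1 passed in keratocyte and 0 to 3 in fibroblast culture. For these alternatives the share of all bright probe sets is not given, so the counts cannot be set against it.

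**Figure D1:**
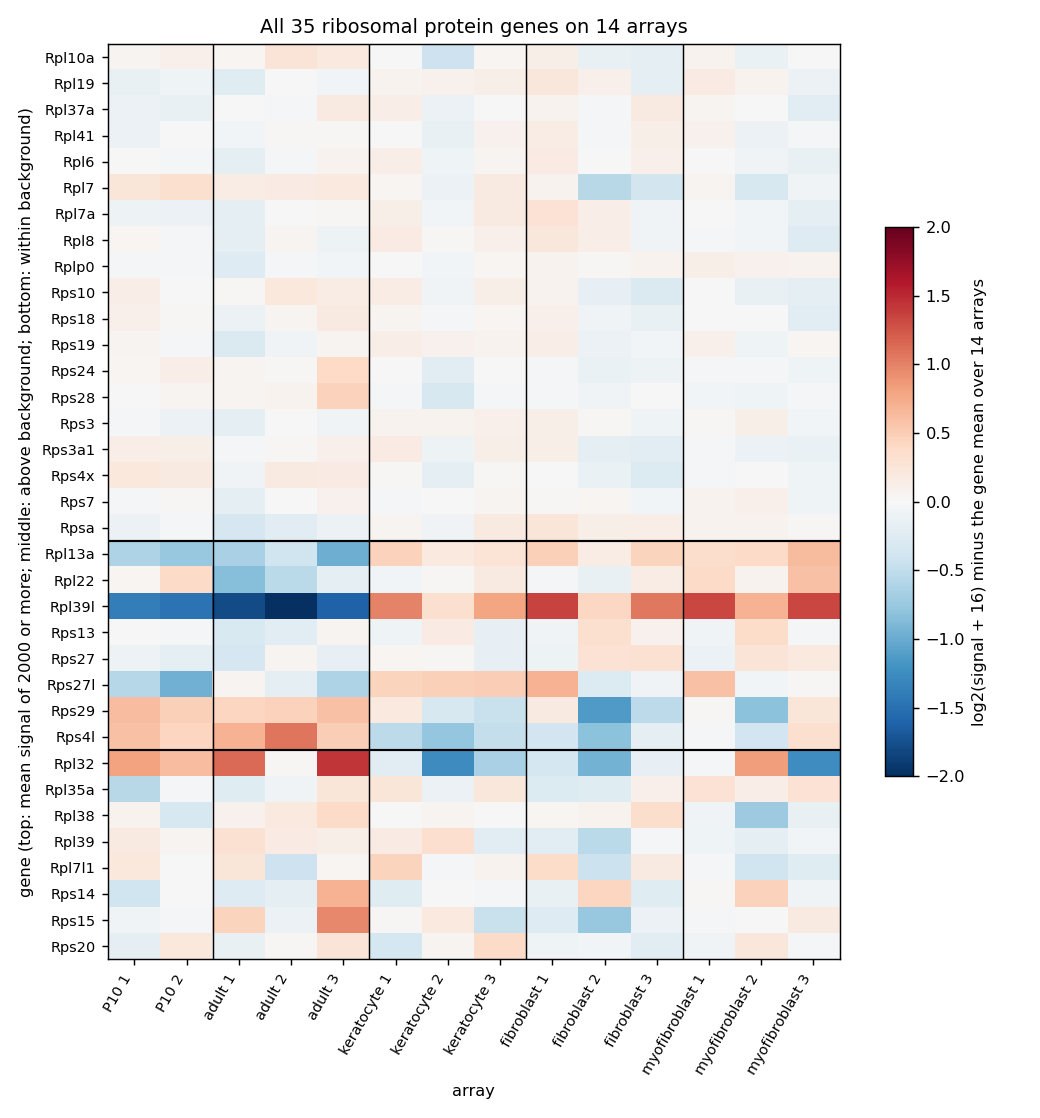
Each row is 1 of the 35 genes and each column 1 of the 14 arrays; colour gives log2(signal + 16) minus the gene's own mean over the arrays. The 19 bright genes at the top are nearly white throughout, Rpl39l and Rpl13a in the middle block turn from blue in the 5 tissue arrays to red in the 9 culture arrays, and the bottom block of 8 genes lies within background.

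Whether the stroma changed its ribosomal protein RNA between P10 and the adult was tested first, on log2(signal + 16) with limma and Benjamini-Hochberg adjustment over all 10370 probe sets kept. None of the 31 tested members passed an adjusted p of 0.05 (1 at an unadjusted p under 0.05), against 3.71% of all probe sets tested (0.453% higher and 3.26% lower in the adult) and 11.3% of bright ones. The median difference of all 35 members was 0.013 on the log2 scale, and that of every probe set tested was -0.12. For 28 of the 31 tested members, the 19 bright ones included, the 95% interval lay within 2-fold in either direction. Rpl22, an RNA-binding large-subunit protein that is not essential for the ribosome, had the lowest adjusted p (0.0794). Its 2 arrays at P10 read 377 and 482 and its 3 adult arrays 195, 246 and 316, without overlap, a log2 difference of -0.75 ± 0.22 (SE). A second probe set of Rpl22 gave 416 and 417 at P10 against 255, 219.7 and 235 for adults, a difference of -0.78 (adjusted p = 0.150). Without adult array 3 the first difference was -0.91 with an adjusted p of 0.0301.

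Bringing adult stromal cells into keratocyte culture was accompanied by change in 6 of the 31 tested members (19.4%), against 31.1% of all probe sets tested. Higher in culture were 4 (Rpl39l, Rpl13a, Rps27l and Rpl22) and lower 2 (Rps4l and Rpl32), where 21.8% of all probe sets were higher and 9.25% lower. In fibroblast culture against adult stroma 7 of 31 passed (22.6%), against 30.8% of all. There 3 were higher (Rpl39l, Rpl13a and Rpsa) and 4 lower (Rps4l, Rpl32, Rps29 and Rpl7), against 18.4% and 12.3% of all probe sets. Rpl32 entered the test only through its tissue signals, so the filter on group means favoured its lower call in both comparisons. The median of all 35 members was 0.023 on the log2 scale in each of these comparisons, and that of every probe set tested 0.12 and 0.04. Both comparisons use the same 3 adult arrays. Under quantile normalization the members higher and lower numbered 3 and 6 in keratocyte culture and 3 and 9 in fibroblast culture, and with arrays centred on their medians 2 and 6, and 3 and 5. Without adult array 1, which had the highest Gapdh ratio, they numbered 3 and 1, and 2 and 1. The shares of all probe sets under these alternatives are not given here, so these counts cannot be set against them. Over all 5 groups 5 of the 31 members differed (16.1%) in limma's F test, against 34.8% of all probe sets, namely Rpl39l, Rpl13a, Rps4l, Rpl22 and Rps27l.

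**Figure D2:**
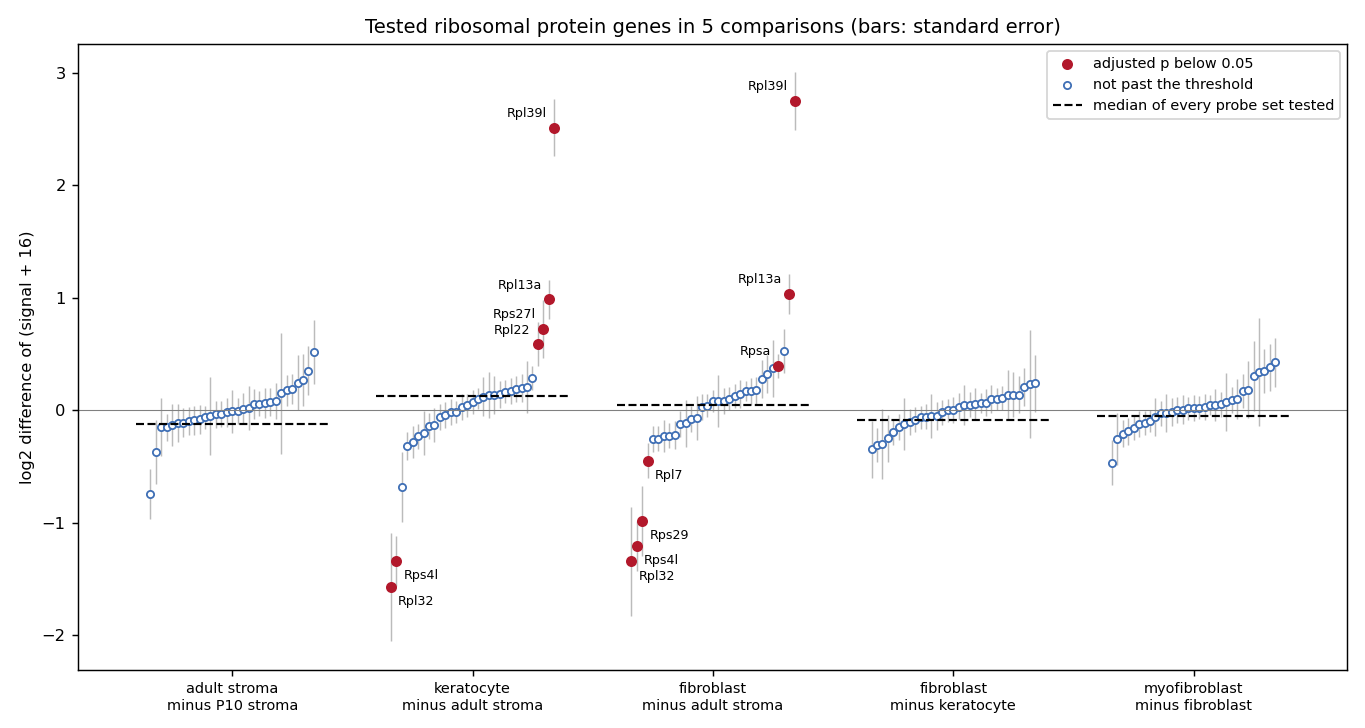
Each point is 1 of the 31 tested genes in 1 of 5 comparisons, placed by its log2 difference of (signal + 16) with its standard error; filled red points passed an adjusted p of 0.05 and dashed lines give the median of every probe set tested. Named points appear in the 2 comparisons of culture with adult stroma, and none in the other 3; Rpl32 lay within background in both groups and Rps4l in the cultures, and Rpl39l in adult stroma, so their positions depend on the added 16.

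Rpl39l, a paralog of the exit-tunnel protein Rpl39 that is known from testis, showed the clearest change. Its P10 arrays read 142 and 132 and its adult arrays 104, 86.2 and 118, near or within background. They were 804, 502 and 695 in keratocyte culture, 1033, 537 and 840.2 in fibroblast culture, and 1021, 651 and 1030.1 in myofibroblast culture. Every culture array was higher than every tissue array. Set against the upper level of background, the mean of keratocyte culture was at least 4.84-fold higher than adult stroma (adjusted p = 3.5e-06) and that of fibroblast culture at least 5.83-fold higher (adjusted p = 1.3e-06). The call held in both comparisons under all 25 alternatives tried. The probe set of Rpl39 itself stayed at 12.6 to 36.0, within background on all arrays, so the 2 genes cannot be compared, and whether the Rpl39l probes also bind Rpl39 RNA was not tested.

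Rpl13a, a large-subunit protein that can leave the ribosome and silence mRNAs of inflammation, rose in culture. Its signals were 188 and 168 at P10, 183, 221 and 143 on the adult arrays, 412, 342 and 363 in keratocyte culture, 419.9, 329 and 409 in fibroblast culture, and 383, 391 and 468 in myofibroblast culture. All 9 culture arrays lay above all 5 tissue arrays. The log2 difference from adult stroma was 0.98 ± 0.18 (SE) in keratocyte culture (adjusted p = 0.00065) and 1.03 ± 0.18 in fibroblast culture (adjusted p = 0.00044), and the calls held under all 25 alternatives. Rpl13a differed little between P10 and adult tissue (0.02 ± 0.20) or between fibroblast and keratocyte culture (0.05 ± 0.18).

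Rps4l, a relative of the X-linked small-subunit gene Rps4x that RefSeq lists as a transcribed pseudogene, fell in culture. The P10 arrays read 199 and 177 and the adult arrays 216, 284 and 185. It gave 83.6, 67.7 and 86.8 in keratocyte culture, 94.4, 65.3 and 110.2 in fibroblast culture, and 123, 93.5 and 163 in myofibroblast culture, where only the last array was above background. Adult stroma was at least 1.66-fold higher than the background level, and so than either of the first 2 cultures (adjusted p = 0.00030 and 0.00071). Both calls held under all 25 alternatives, while the bound was computed from the deposited signals only. The second Rps4l probe set stayed at 44.1 to 62.0 on all arrays, within background, so the change rests on 1 probe set. The probe set of Rps4l belongs to a kind that Affymetrix marks as shared by related sequences. It is 1 of 9 members whose probe set names carry an added letter (s, f or r). The others are Rpl7, Rpl32, Rpl38, Rpl41, Rps13, Rps24, Rps27l and Rps28. The second Rpl10a set described below carries an f too. How far these sets read a single gene was not tested. Rps4x had 4534 ± 44.4 (SD, n = 2) at P10, 4244 ± 401 in the adult and 3845 ± 333 in keratocyte culture (SD, n = 3 each), and did not pass in any comparison.

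Rps27l, a paralog of Rps27 that p53 can induce, was higher in keratocyte culture than in adult stroma. Its signals were 414 and 312 at P10, 648, 541 and 403 on the adult arrays, and 854, 875 and 881 in keratocyte culture. The last did not overlap the tissue arrays, and the log2 difference was 0.72 ± 0.25 (SE, adjusted p = 0.0442). Fibroblast arrays gave 1019, 515 and 594 and myofibroblast arrays 946, 600.0 and 638, which overlap adult stroma (fibroblast minus adult 0.37 ± 0.25, adjusted p = 0.298). In both of these cultures the first array was far above the other 2. The call for keratocyte culture was near the threshold: it was lost without adult array 2 or 3, P10 array 1 or 2, any keratocyte array or myofibroblast array 3, with an adjusted p of 0.0523 to 0.161. Centring the arrays on their medians lost it as well (adjusted p = 0.103). Rps27 itself, a zinc-binding small-subunit protein, ranged from 224 to 298 in tissue and from 254 to 360.3 in culture and did not pass in any comparison (log2 0.12 ± 0.17 in keratocyte culture and 0.32 ± 0.17 in fibroblast culture against adult stroma). The difference between the paralogs was not tested.

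Rpl7l1, a relative of Rpl7 that acts in assembly of the large subunit, stayed within background at 65.9 to 134 on all arrays, so no comparison with Rpl7 could be made.

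**Figure D3:**
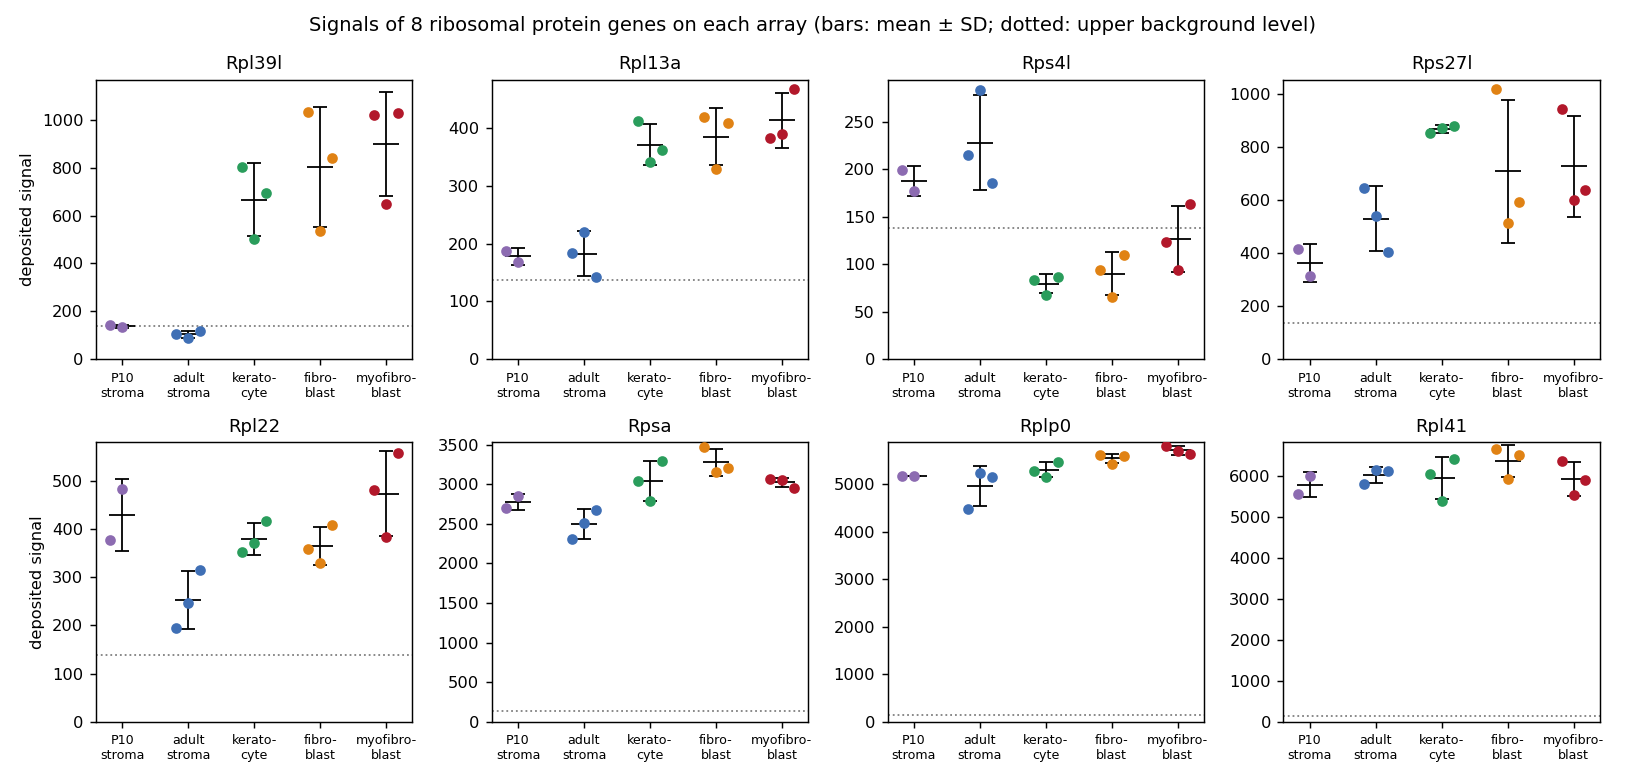
Deposited signals of 8 genes on each array, with the mean and SD of each group and a dotted line at the upper level of background; every axis starts at 0. Rpl39l and Rpl13a are higher on all 9 culture arrays than on the 5 tissue arrays, Rps4l is lower on all 9, and Rplp0 and Rpl41 lie nearly level.

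Rpl22 was higher in keratocyte culture by its bright probe set only. That probe set gave 195, 246 and 316 in the adult, 352, 372 and 417 in keratocyte culture, 359, 329.8 and 408 in fibroblast culture and 480.4, 383 and 558 in myofibroblast culture. The log2 difference of keratocyte culture from adult stroma was 0.58 ± 0.20 (SE, adjusted p = 0.0353). The other probe set gave 253, 139.5 and 202 in keratocyte, 141, 84.7 and 166 in fibroblast and 132, 84.2 and 101 in myofibroblast culture, against 255, 219.7 and 235 in the adult. It thus went the other way: -0.27 in keratocyte culture (adjusted p = 0.427), and in fibroblast culture, where its mean of 131 ± 41.8 (SD, n = 3) fell within background, it was lower (adjusted p = 0.0175). The bright set's call was lost without adult array 1 or 2 or any keratocyte array, at an adjusted p of 0.0599 to 0.149, while its rise in fibroblast culture (0.53, adjusted p = 0.0555) passed without adult array 3 or myofibroblast array 2 (0.0179 and 0.0473). Other alternatives that lost the keratocyte call include the Gapdh ratio as a covariate (adjusted p = 0.237), quantile normalization (0.141) and centring (0.0939). With the Rpl22 probe sets in opposite directions, no direction is given for the gene in culture.

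Rpsa, the small-subunit protein also known as the laminin receptor precursor, was the bright member with the largest rise. Its signals were 2701 and 2845 at P10, 2306, 2506 and 2676 on the adult arrays, 3044, 2791 and 3299 in keratocyte culture, 3469.6, 3157 and 3204 in fibroblast culture and 3066, 3051 and 2956 in myofibroblast culture. All 9 culture arrays were above the adult arrays, and 8 of them above P10 as well. The difference from adult stroma was 0.39 ± 0.11 on the log2 scale in fibroblast culture (SE, adjusted p = 0.0124), a 1.31-fold rise, and 0.28 ± 0.11 in keratocyte culture (adjusted p = 0.0583). Without adult array 1 the first had an adjusted p of 0.0545, and without adult array 3 or keratocyte array 2 the second passed, at 0.0377 and 0.0430. The fibroblast call was also lost with the Gapdh ratio as a covariate (adjusted p = 0.102) and with only the groups compared in the fit (0.116).

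Rps29, a small zinc-binding protein of the small subunit, read 1554 and 1407 on the P10 arrays and 1354, 1393 and 1522 on the adult arrays. In keratocyte culture it gave 1158, 803 and 732, in fibroblast culture 1145, 448 and 697, and in myofibroblast culture 1024, 565 and 1186. No culture array reached the lowest tissue array. The difference of fibroblast culture from adult stroma was -0.98 ± 0.31 (log2, SE, adjusted p = 0.0266) and that of keratocyte culture -0.68 ± 0.31 (adjusted p = 0.112). The call in fibroblast culture was lost without any 1 adult array or without fibroblast array 2 or 3, at an adjusted p of 0.0506 to 0.112. It was also lost with the Gapdh ratio as a covariate (adjusted p = 0.0970) and with the median over probe sets (0.0859). The other Rps29 probe set, near background, had 149.6 ± 52.2 in the adult and 139.7 ± 7.99 in fibroblast culture (SD, n = 3).

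Rpl7, a core protein of the large subunit, gave 4035 and 4272 at P10, 3771, 3808 and 3919.9 on the adult arrays, 3506, 3131 and 3859 in keratocyte culture, 3577, 2324 and 2649 in fibroblast culture and 3557, 2739.7 and 3238 in myofibroblast culture. Fibroblast culture was below adult stroma by -0.45 ± 0.15 on the log2 scale (SE, adjusted p = 0.0374). This was lost without any 1 adult array, any 1 P10 array or fibroblast array 2 or 3, at an adjusted p of 0.0528 to 0.152. Other alternatives that lost the call include the Gapdh ratio as a covariate (adjusted p = 0.128) and a fit of only the groups compared (0.123). The other Rpl7 probe set went the other way and passed as higher in keratocyte culture (adjusted p = 0.0025) and in fibroblast culture (adjusted p = 0.0047). Its group means all lay within background, at 30.7 ± 27.6 in the adult, 127 ± 19.2 in keratocyte and 114 ± 27.7 in fibroblast culture (SD, n = 3 each), so no fold is given for it. The annotation gives the bright probe set of Rpl7 the same sequence accession as that of Rps24, while the other Rps24 probe set stayed at or near background, with group means of 89.1 to 146. Which of the 2 genes each bright probe set reads is therefore uncertain.

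Rpl32 passed as lower in both cultures although all its signals lie within background. They were 73.6, 25.5 and 93.9 in the adult, 18.9, 1.00 and 10.1 in keratocyte culture and 16.2, 5.26 and 20.4 in fibroblast culture. The first comparison lost its call without adult array 1 or 3 or keratocyte array 2 or 3, at an adjusted p of 0.0556 to 0.0888. The second lost it without adult array 1 or 3, either P10 array, any fibroblast array, keratocyte array 1 or 3 or myofibroblast array 1, at 0.0515 to 0.161. The group means of Rpl32 met the filter only in tissue, at 64.4 in the adult and 51.0 at P10. They were 9.99 in keratocyte, 13.9 in fibroblast and 27.4 in myofibroblast culture, so the filter favoured a lower call in culture. With a filter at a mean of 100 the gene was not tested. No fold is given for this gene.

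Rpl10a, a protein of the stalk through which spent tRNA leaves, did not pass by its bright probe set, with 2709 ± 214 in the adult, 2233 ± 373 in keratocyte and 2310.1 ± 277 in fibroblast culture (SD, n = 3 each). Its other probe set gave 2183, 1839 and 1203 in the adult, 1231, 872 and 1056 in keratocyte culture and 1176, 772 and 814 in fibroblast culture. That set passed as lower in both, by -0.69 (adjusted p = 0.0332) and -0.89 (adjusted p = 0.0084), although its lowest adult array overlapped keratocyte culture. Rps28, a small protein of the mRNA exit region, had 2 bright probe sets, and neither passed in any comparison. One was 4402 ± 745 and the other 4095 ± 135 in the adult, and they were 3513 ± 389.8 and 3614 ± 102 in keratocyte culture (SD, n = 3). The difference of the first, -0.32 (adjusted p = 0.067), passed without adult array 2 (0.0460) and, as -0.44, with quantile normalization (0.0024). Rps24 and Rps28 shared a high adult array 3, at 6682 and 5261 against at most 5259.9 and 3998 on the other adult arrays.

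**Figure D4:**
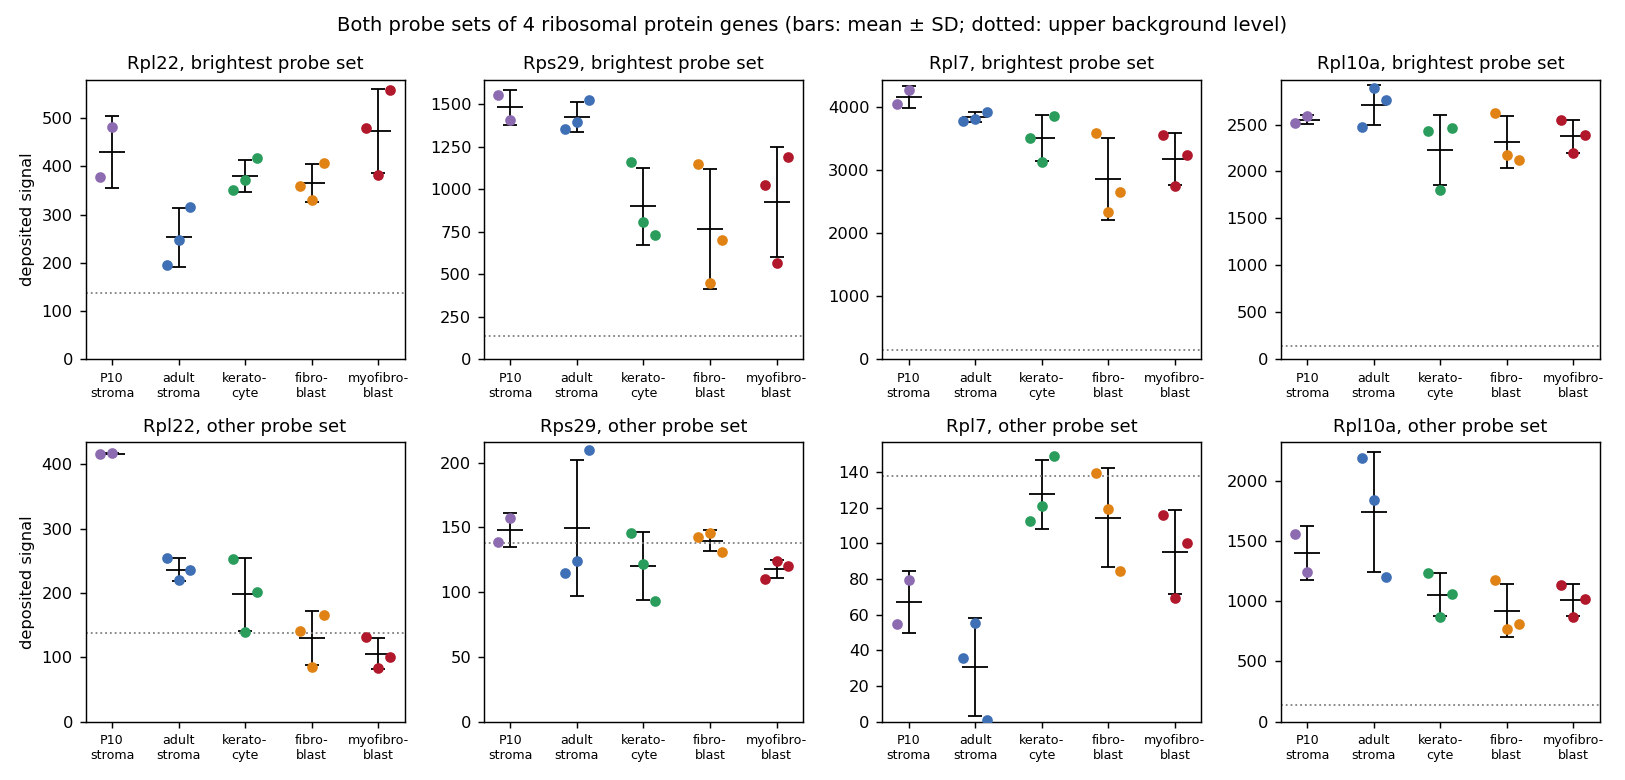
Signals of the brightest (top) and another probe set (bottom) of 4 genes on each array, with group means and SDs and a dotted line at the upper level of background. The Rpl22 sets fall together from P10 to adult and part in culture, and the lower Rps29 and Rpl7 sets lie near or within background.

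No member passed the threshold in the comparisons made between cultures, and myofibroblast culture was not compared with keratocyte culture. Serum was compared by fibroblast against keratocyte culture, where none of the 31 tested members passed (0 at an unadjusted p under 0.05 in limma), against 1.37% of all probe sets (0.193% higher and 1.18% lower) and 1.42% of bright ones. TGF-beta 1 was compared by myofibroblast against fibroblast culture, which share fetal bovine serum, and again none of 31 passed (1, Rpl38, at an unadjusted p under 0.05), against 1.07% of all (0.289% higher and 0.781% lower) and 0.709% of bright ones. The medians of all 35 members were -0.0015 and 0.029 on the log2 scale. The 95% interval lay within 2-fold for 30 of the 31 members in each comparison. For the 19 bright members it lay within 1.5-fold in 18 and in 19. The largest difference among bright members between fibroblast and keratocyte culture was that of Rpl7 (-0.31 ± 0.15, SE, adjusted p = 0.610), and after TGF-beta 1 that of Rpl8 (-0.21 ± 0.12, adjusted p = 0.752). Rpl8, a protein near the peptidyl transferase centre, had 3432 ± 361 in fibroblast and 2963 ± 254 in myofibroblast culture (SD, n = 3), with overlapping arrays.

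The rest of the translation machinery was set beside the members, from lists of gene names. Aminoacyl-tRNA synthetases, which charge tRNAs with their amino acids, changed in the largest share: of 19 cytosolic genes 12 were higher and 1 lower in keratocyte culture than in adult stroma, and 12 and 1 in fibroblast culture (68.4% in each, against 31.1% and 30.8% of all probe sets). The list's median differences over its tested genes were 0.67 and 0.73 on the log2 scale. For all 35 ribosomal proteins, the 8 within background included, the median was 0.02 in each comparison. For the 19 bright ones alone it was 0.02 and 0.04. Iars, the isoleucine enzyme, was 198 ± 48.2 in the adult, 478 ± 101 in keratocyte and 455 ± 101 in fibroblast culture (SD, n = 3 each, adjusted p = 0.00079 and 0.0013). Gars, the glycine enzyme, was 184 ± 28.2 in the adult and 476 ± 92.2 in fibroblast culture (adjusted p = 0.00011). Nars and Tars, for asparagine and threonine, had adult means of 96.2 ± 20.1 and 134 ± 31.7, within background, and 315 ± 78.8 and 365 ± 69.2 in keratocyte culture. Qars, for glutamine, was the one that fell, from 465 ± 71.4 in the adult to 263 ± 56.6 in keratocyte and 256 ± 89.9 in fibroblast culture.

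Of 51 tested ribosome biogenesis factors 21 were higher and 1 lower in keratocyte culture, and 9 higher and 1 lower in fibroblast culture. This is 43.1% of the list in the first, above the 31.1% of all probe sets, and 19.6% in the second, below the 30.8% of all. Npm1, a nucleolar chaperone of ribosome assembly, rose from 786 ± 105 in the adult to 2336 ± 165 in keratocyte and 1901 ± 543 in fibroblast culture (log2 1.56 ± 0.19 and 1.23 ± 0.19, SE, adjusted p = 2.6e-05 and 0.00022). Gar1, a protein of the particles that modify ribosomal RNA, was 396 ± 45.4 in the adult and 1022 ± 337 in fibroblast culture (adjusted p = 0.0014). Myc, a transcription factor that drives ribosome production, was 28.1 ± 15.5 in the adult, within background, and 208 ± 30.3 in keratocyte culture, while in fibroblast culture its mean of 116 ± 55.7 was also within background. Gnl2, a nucleolar GTPase, gave the single lower call. It was listed at the floor of 1 on all keratocyte and fibroblast arrays and at 45.9 to 169.7 in the adult, with a mean within background. It entered the test only through adult stroma, where array 2 alone lay above background. Without that array it was not tested, and with a filter at a mean of 100 the list had no lower call.

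Of 39 translation initiation factors 13 were higher and 1 lower in each culture than in adult stroma, with list medians of 0.51 and 0.34. The share, 35.9% in each, was near that of all probe sets (31.1% and 30.8%). Eif1ax, which scans for the start codon, was 199 ± 55.9 in the adult, 467 ± 70.3 in keratocyte and 441 ± 143 in fibroblast culture (adjusted p = 0.0032 and 0.0062). Eif3a, the largest subunit of the scaffold factor eIF3, rose from 227 ± 39.8 to 480.3 ± 114 in keratocyte culture (adjusted p = 0.0133). Eif4ebp2, which blocks the cap-binding factor, fell from 701 ± 167 to 412 ± 50.5 and 360.5 ± 23.9 (adjusted p = 0.0054 and 0.0011). Mitochondrial ribosomal proteins, which build the separate ribosome of mitochondria, had 19 of 61 higher and 1 lower in keratocyte culture, and 14 higher and 3 lower in fibroblast culture. These shares, 32.8% and 27.9%, were also near those of all probe sets. Mrpl20 was 121 ± 41.7 in the adult, within background, and 300.3 ± 41.9 in keratocyte culture, and Mrpl39 fell from 326 ± 67.0 to 199.9 ± 35.9 and 159 ± 27.6 (adjusted p = 0.0263 and 0.0027).

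Elongation factors had list medians of 0.13 and 0.22. Of 7 tested, Eif5a, which helps the ribosome through difficult peptide bonds, was higher in both cultures, at 659 ± 127 in the adult, 1045 ± 65.5 in keratocyte and 1124 ± 214 in fibroblast culture (adjusted p = 0.0101 and 0.0047). Eef2, the translocation factor, passed in fibroblast culture (1949.6 ± 616 in the adult and 2748 ± 64.2, adjusted p = 0.0361). Eef1a1, which delivers charged tRNA, was 5209 ± 405 in the adult and 5706 ± 524 in keratocyte culture (adjusted p = 0.388). Of the ribosome-bound Tpt1, Naca and Btf3 none passed between culture and adult stroma, nor at an unadjusted p under 0.05. None of the 6 lists had a member past the threshold between P10 and adult stroma, between fibroblast and keratocyte culture or between myofibroblast and fibroblast culture. At an unadjusted p under 0.05 there were at most 6 members of a list in any of these comparisons.

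With arrays centred on their medians, the counts higher and lower in keratocyte culture were 8 and 1 of the synthetases, 14 and 1 of the biogenesis factors, 11 and 2 of the initiation factors and 15 and 3 of the mitochondrial ribosomal proteins. For these lists the median stayed above 0, while that of the elongation factors turned to -0.04. Without adult array 1 the counts were 10 and 0, 13 and 1, 10 and 1, and 14 and 1, and the elongation factors had 0 and 1. The biogenesis factors higher in keratocyte culture numbered 12 without keratocyte array 1 and 12 without keratocyte array 3, and the initiation factors 7 without keratocyte array 1. Without fibroblast array 1, the mitochondrial ribosomal proteins higher in fibroblast culture fell from 14 to 5, and the median of the biogenesis factors from 0.27 to 0.03. With only the adult and fibroblast arrays in the fit, 3 mitochondrial ribosomal proteins, 8 initiation factors, 6 biogenesis factors and 8 synthetases were higher. Shares of all probe sets are not given for these alternatives either. Most synthetases and biogenesis factors have far lower signals than the bright ribosomal proteins, so the share that passed is not compared by a test. The summed signal of 9 markers of dividing cells was 2500 to 3287 in tissue, 3397 to 3573 in keratocyte and 3084 to 4898 in fibroblast culture, and its part in these counts was not tested.

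**Figure D5:**
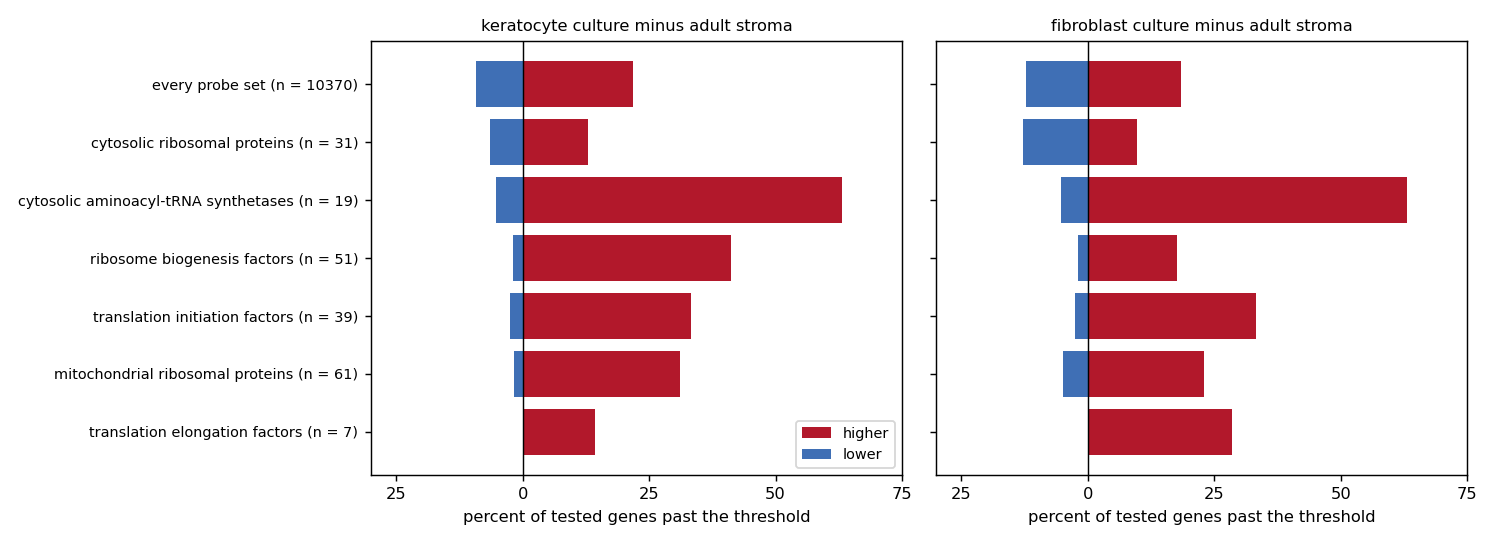
Percent of the tested genes of each list that passed an adjusted p of 0.05 as higher (red, right) or lower (blue, left) in keratocyte and in fibroblast culture than in adult stroma, with the number tested beside each name. The synthetases have the longest red bars (12 of 19 in each panel), and the cytosolic ribosomal proteins have shorter red bars than the whole set of probe sets.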

How the data were processed

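Per the labels, total RNA was isolated with TRIzol, 5 µg was labelled for each array, and signals were scaled by the authors to a target of 150 in Microarray Suite 5.0. The deposited values are linear probe set intensity values with a floor at 1 and no detection calls. Their 2% trimmed means were 164.3 to 224.7, so the scaling is not settled. A signal scaled within an array measures a share of the labelled RNA, not an amount per cell, and the number of arrays limits the precision.

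Of 12422 probe sets that are not controls, 10370 with a mean of 50 or more in at least 1 group were fitted as log2(signal + 16) with limma 3.58.1 in R 4.3.3: all 14 arrays, 1 mean per group, 9 residual degrees of freedom and eBayes with a trend. Two-sided p-values of all 10370 were adjusted together (Benjamini-Hochberg), and an adjusted p below 0.05 was called. Fold changes between groups are on the log2(signal + 16) scale and are given where both group means exceed 137.7. Where 1 mean was below 137.7, as for Rpl39l and Rps4l, the higher mean of deposited signals was divided by 137.7 to give a lower bound. The fit was tested on simulated data. Members, lists and the rule for named genes were chosen with earlier results of these data known. That rule takes up to 6 members with the largest rise or fall past the threshold per comparison, stalk proteins, paralogs with their core member, the 6 with the widest range, those whose probe sets part, and up to 4 genes of each other list. Rps3, Rps7, Rps10, Rpl6, Rpl8, Rpl41, Qars and Eef1a1 fall outside it and were named after their values were seen.

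Replicate numbers pair myofibroblast with fibroblast arrays, whose deviations from the group means correlated at 0.623, 0.682 and 0.533; other comparisons had correlations of 0.1 or less in at least 1 pair. All 35 symbols matched RefSeq.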

Additional observations from a re-analysis of the deposited data

How the results depend on the processing

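Counts of members are small, so a few calls near the threshold move them. In fibroblast against keratocyte and myofibroblast against fibroblast culture no alternative gave a call, the replicate block included. Rpl39l, Rpl13a and Rps4l kept their calls in both comparisons with adult stroma under every alternative. From P10 to adult, 1 member was higher with the median over probe sets (Rpl38) and 1 lower with the replicate block or without adult array 3 (Rpl22; 0 to 1 over the arrays left out); these groups share replicate numbers but not a pairing that the data bear out. In keratocyte culture against adult stroma the count lower, 2, became 1 with log2(signal + 1), with a filter at 100 or with the Gapdh ratio as covariate, 4 with the replicate block and 6 with quantile normalization or centring; the count higher, 4, became 2 with centring. Leaving out 1 array gave 2 to 4 higher and 1 to 4 lower. In fibroblast culture against adult stroma the count lower, 4, became 9 with quantile normalization and 1 with the Gapdh covariate, and leaving out 1 array gave 2 to 4 higher and 1 to 4 lower. The count over all 5 groups, 5, became 12 with quantile normalization, 10 with centring and 4 to 7 with 1 array left out. Shares of all probe sets are not given for these alternatives, so no count here can be set against them. Centring moved the members' median to 0.19 from P10 to adult and to -0.15 in keratocyte culture, while it moved that of all 12422 probe sets from -0.11 to 0.06 and from 0.08 to -0.09. Rpl7 turned to 0.85 in keratocyte culture (adjusted p = 0.0148) and 0.62 in fibroblast culture (adjusted p = 0.0664) with the median over its probe sets, the second of which is within background. The cause of the other changes was not tested.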

Other observations

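Among the 39 probe sets that list a ribosomal protein gene beside other symbols, mean signals over the 14 arrays ran from 18.8 to 5405, and 3 of the 34 tested passed an adjusted p of 0.05 in limma in at least 1 of the 5 comparisons. Which of the listed genes each of them reads is uncertain, so no gene is named for them.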
